A study of Homo sapiens with 8 samples.

Results

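The genes described are the subunits of the lysosomal proton pump, its accessory proteins, the cathepsins and the lysosome-associated membrane proteins LAMP1 and LAMP2. Members were taken by gene symbol, for a set of genes picked with earlier results of these data known, and 36 of the 26372 genes in the expression table were members: 9 subunits of the membrane sector V0, 13 subunits of the cytosolic sector V1, 2 accessory proteins, 2 LAMPs and 10 cathepsins. RNA was measured by sequencing in cells labelled M17, taken here as BE(2)-M17, an established human neuroblastoma line. The growth protocol names SH-SY5Y cells too, but no library is labelled as such. In 4 libraries the cells had received IFN-γ, the interferon that T cells and natural killer cells secrete, for 24 h at 10 ng/ml, and in 4 they were untreated. All 8 libraries are total RNA depleted of ribosomal RNA. No label tells whether libraries within a group are separate cultures, so p-values cover only how these libraries vary, which can be technical variation. All 8 libraries carry this 1 line's label.

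The vacuolar ATPase (V-ATPase) is a rotary proton pump. Its V1 sector splits ATP in the cytosol, and the turning of a central stalk drives protons through a ring of proteolipid subunits in the V0 sector. The acid it makes keeps cathepsins, the proteases of the lysosome, active, and also loads synaptic and secretory vesicles in neurons. LAMPs are heavily glycosylated proteins that cover the inner face of the lysosomal membrane. In antigen-presenting cells IFN-γ is known for raising a few cathepsins that cut antigens and the class II invariant chain.

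The member with the largest change was CTSO, a little-studied cysteine cathepsin, which rose 4.62-fold (95% interval 3.94 to 5.42). Among the pump genes ATP6V0A1 rose 1.34-fold, ATP6AP2 1.22-fold and ATP6V1C2 2.27-fold. The last shares 29.7% of its exonic bases with PDIA6, a strongly expressed gene on the other strand that rose 2.21-fold. The part of PDIA6 in the ATP6V1C2 rise was not tested. LAMP2 rose 1.16-fold. Of the other cathepsins 3 fell: CTSF to 0.620 of the untreated level, CTSH to 0.654 and CTSB to 0.816. The other 24 tested members did not pass the test, among them the abundant pump subunits ATP6V0C, ATP6V0B, ATP6V1B2 and ATP6V1E1. Fewer cells with an RNA and less of it per cell cannot be told apart in these bulk samples.

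Values are FPKM, by definition fragments scaled to transcript length and to the mapped fragments of the library. Any further scaling between libraries was not given. Levels of different genes can be set side by side per length. Changes are IFN-γ minus untreated in log2(FPKM + 0.1), where the added 0.1 shrinks the changes of low genes, and folds are those changes on a linear scale. Of the 36 members, 32 had a mean of at least 0.5 FPKM over the 8 libraries and were tested with limma, among 13598 genes. At an adjusted p of 0.05, 5 members were higher and 3 lower with IFN-γ. Over all genes tested the same threshold called 22.3%, with 13.3% higher and 9.05% lower, and the members' 25% lies near that background. The groups did not overlap in 10 members, 7 higher and 3 lower, where 28.2% of all genes tested did not overlap, 15.4% higher and 12.9% lower. The median log2 change was 0.07 over the 32 members and -0.0047 over all genes tested. The split of calls depended on the scaling: quantile normalization, and TPM (each library rescaled to one total) without short RNA genes, both gave 4 members higher and 5 lower, and 1470 higher and 2564 lower, and 1144 higher and 1777 lower, over all genes, against 1809 higher and 1230 lower in the deposited values. SNORD3A, a small nucleolar RNA, was listed at 0 in all 4 IFN-γ libraries and held 5.97 to 57.9% of the summed FPKM of the untreated ones, and its part in the scaling was not tested.

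**Figure D1:**
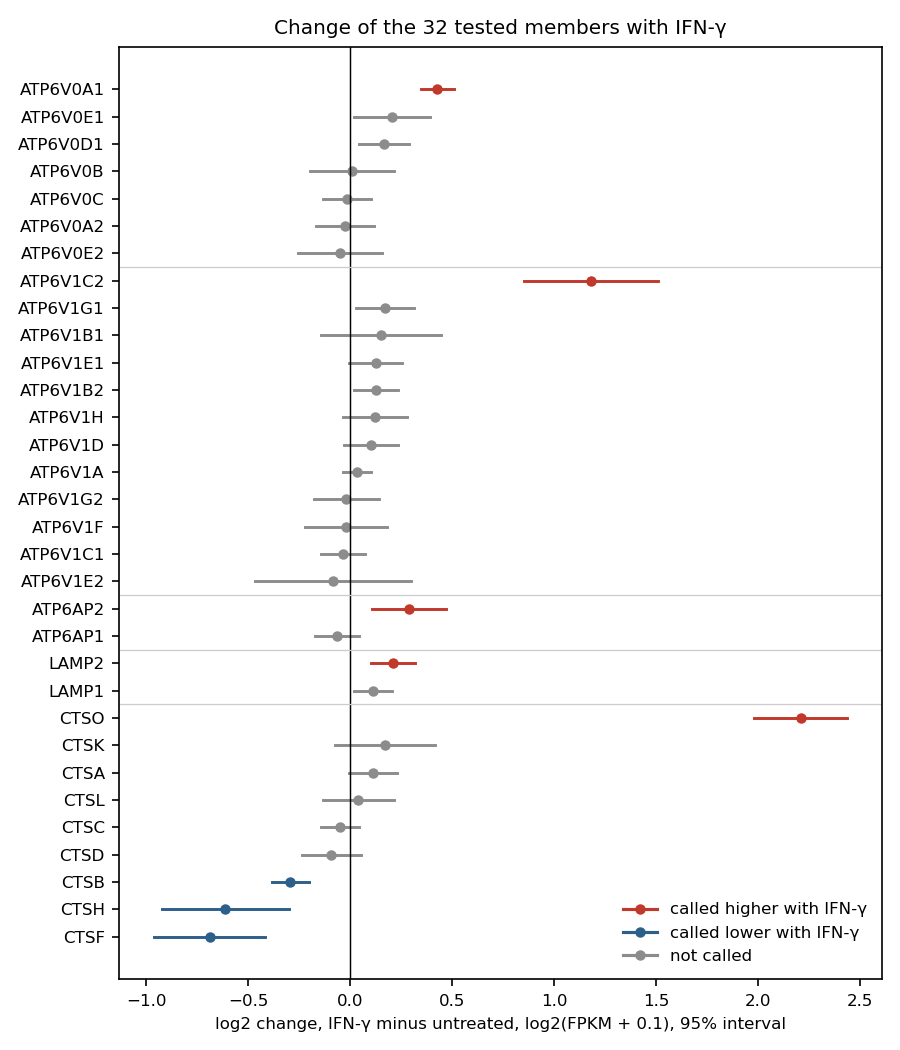
Log2 change of each tested member (points, IFN-γ minus untreated, log2(FPKM + 0.1)) with its 95% interval from limma (lines), n = 4 libraries a group, grouped from top to bottom as V0, V1, accessory proteins, LAMPs and cathepsins. CTSO lies at 2.21 and ATP6V1C2 at 1.18, while the other pump subunits lie between -0.09 and 0.43.

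The libraries were checked for identity and quality before the members were read. IRF1, a transcription factor that IFN-γ induces, was at 125 ± 2.14 FPKM with IFN-γ and 0.584 ± 0.0404 untreated (SD, n = 4 each, as for every ± here). Each library held roughly 14.4 to 20.6 M fragments, as read from the spacing of low FPKM values. IFN-γ replicate 4 stood apart: pairs with it varied 4.85 to 6.63 times as much as counting alone allows, and the other pairs of a group 1.52 to 2.25 times. The neuroblastoma markers summed to 1542 to 1642 FPKM with IFN-γ and 1365 to 1406 FPKM untreated. 8 macrophage markers summed to 1.03 to 1.68 FPKM with IFN-γ and 0.988 to 1.47 FPKM untreated, with 6 of them under 0.5 FPKM in every library. 5 fibroblast markers summed to 182 to 238 FPKM with IFN-γ and 164 to 175 FPKM untreated, nearly all of it DCN, LUM and PDGFRB, while the collagen genes COL1A2 and COL3A1 stayed at or under 0.302 FPKM in every library. LUM and PDGFRB rose with IFN-γ, and their part in the results below was not tested.

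The DNA before 3 member genes is shown so that the lysosomal motifs can be seen in place. LAMP1 and ATP6V1G1 hold them and ATP6V0A1 holds none, and a link between motif and change was not tested. Each sequence lies within the 250 bases before the RefSeq gene start and ends before the GENCODE start where that comes earlier, 5′ to 3′ on the gene's own strand, from RefSeq (GRCh38.p14). Capitals mark CACGTG (the E-box) or TCACGTGA (the core of the CLEAR element, the site of the lysosomal regulator TFEB).
ATP6V0A1, chr17:42458628-42458843, forward strand: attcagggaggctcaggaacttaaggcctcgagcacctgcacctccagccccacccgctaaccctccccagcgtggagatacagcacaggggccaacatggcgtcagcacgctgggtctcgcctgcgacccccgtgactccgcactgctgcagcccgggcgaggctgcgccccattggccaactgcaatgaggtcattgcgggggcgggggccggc
LAMP1, chr13:113296989-113297238, forward strand: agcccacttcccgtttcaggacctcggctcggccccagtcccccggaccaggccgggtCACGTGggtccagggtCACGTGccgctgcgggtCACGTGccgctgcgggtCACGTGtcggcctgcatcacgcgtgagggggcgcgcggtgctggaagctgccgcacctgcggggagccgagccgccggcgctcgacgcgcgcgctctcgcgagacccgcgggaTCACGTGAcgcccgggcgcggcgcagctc
ATP6V1G1, chr9:114587519-114587745, forward strand: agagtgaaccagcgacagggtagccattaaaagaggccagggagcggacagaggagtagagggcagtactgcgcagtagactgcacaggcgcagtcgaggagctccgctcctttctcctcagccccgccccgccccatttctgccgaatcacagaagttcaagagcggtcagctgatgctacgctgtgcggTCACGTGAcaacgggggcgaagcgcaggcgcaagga

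Motifs were counted over the whole 250 bases before the RefSeq start, which can lie inside the gene span that GENCODE gives, as for ATP6V1C2 and most of the CTSF window. Of the 36 members, 25 had such a window in the RefSeq table. The called members CTSO, CTSB and LAMP2 had none, so no motif was searched for them. TCACGTGA stood in 4 of the 25 (ATP6V0D1, ATP6V1G1, CTSA and LAMP1) and in 1.04% of the 27305 genes with a window. Called members numbered 0 of these 4, too few genes to set against the 22.3% called among all genes. CACGTG, which every TCACGTGA contains, stood in 8 of the 25 and in 7.73% of all genes, and 1 of the 8, CTSF, was called. LAMP1 held 5 copies of CACGTG, the nearest starting 28 bases before the RefSeq start. The interferon motifs TTCNNNGAA (the GAS element) and an ISRE-like pair (GAAA, any 2 bases, GAAA) were searched on both strands as well. TTCNNNGAA stood in 2 of the 25 members, ATP6V1F and ATP6V1G3, and in 8.09% of all genes, and the ISRE-like pair in 0 of the 25 and in 3.71% of all genes. These are matches of letters in 1 window per gene start and say nothing of binding.

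In the V0 sector, which carries the protons, 1 of 7 tested subunits rose and none fell, where 13.3% of all genes tested rose and 9.05% fell. Quantile normalization, however, called ATP6V0C lower (-0.18, limma adjusted p = 0.00310). ATP6V0A1 encodes the a1 form of the large subunit that passes protons to the ring and is the main form in neurons. Its gene spans chr17:42458844-42522611, forward strand (GRCh38; gene positions here are those of GENCODE 29). Its FPKM was 39.4, 39.2, 41.0 and 38.6 with IFN-γ, against 28.6, 29.5, 30.1 and 29.4 untreated. The groups stood apart by more than 8 FPKM, while the values within each group spanned under 3. It rose by 0.43 in log2 (SE 0.04, limma adjusted p = 1.1e-05), and IFN-γ replicate 4 was the lowest of its group.

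The other a forms were not called or were too low to test. ATP6V0A2, a form of the Golgi and endosomes, was at 8.26 ± 0.632 FPKM with IFN-γ and 8.39 ± 0.312 FPKM untreated, with a log2 change of -0.03 (95% interval -0.17 to 0.12). ATP6V0A4, the kidney form, was at or under 0.0589 FPKM in every library and was not tested. TCIRG1, the osteoclast form of this subunit under a name of its own, was at 0.198 to 0.446 FPKM with IFN-γ and 0.233 to 0.428 FPKM untreated, also under the filter.

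The proteolipid ring was the most abundant component and did not pass the test. ATP6V0C encodes the c subunit, of which the ring holds many copies, and was the highest member of all. It stood at 112, 114, 114 and 129 FPKM with IFN-γ, against 124, 118, 118 and 114 FPKM untreated. The groups overlapped, with IFN-γ replicate 4 alone above the untreated values, and the log2 change was -0.02 (95% interval -0.13 to 0.10). ATP6V0B, the c″ proteolipid, stood at 65.5, 66.6, 72.3 and 91.8 FPKM with IFN-γ, against 74.7, 72.9, 72.4 and 71.7 FPKM untreated. Here too IFN-γ replicate 4 was above all untreated libraries, replicate 3 lay among them, and replicates 1 and 2 were below them.

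The remaining V0 subunits gave small positive or near-zero differences that missed the threshold. ATP6V0D1, which links the ring to the central stalk, was at 29.01 ± 2.14 FPKM with IFN-γ and 25.8 ± 0.692 FPKM untreated (log2 change 0.17, limma adjusted p = 0.0549). ATP6V0E1, a small subunit of the membrane sector, was at 74.0 ± 10.1 and 63.8 ± 3.10 FPKM (0.21, limma adjusted p = 0.110), and its paralog ATP6V0E2 at 4.65 ± 0.635 and 4.79 ± 0.201 FPKM, each with IFN-γ before untreated. ATP6V0D1 was called without IFN-γ replicate 1 (0.22, limma adjusted p = 0.00719). ATP6V0D2, the d form of osteoclasts and kidney, was listed at 0 in all 8 libraries.

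In the V1 sector, which splits ATP, 1 of 12 tested subunits rose and none fell, where 13.3% of all genes tested rose and 9.05% fell. That 1 rise is uncertain. ATP6V1C2 encodes a tissue-restricted form of the subunit that clamps V1 to the membrane sector during assembly. Its FPKM was 1.51, 1.38, 1.53 and 1.64 with IFN-γ, against 0.504, 0.756, 0.604 and 0.599 untreated. All 4 IFN-γ libraries were above all untreated libraries, at a level that corresponds to about 25.7 to 105 fragments per library. That is a log2 change of 1.18 (SE 0.15, limma adjusted p = 2.3e-04), and 0.64 with a pseudocount of 1.

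ATP6V1C2 spans chr2:10721100-10785110, forward strand, and 29.7% of its exonic bases are also exons of PDIA6 on the other strand. PDIA6, a protein disulfide isomerase of the endoplasmic reticulum, was at 257 ± 11.7 FPKM with IFN-γ and 116 ± 1.47 FPKM untreated, a 2.21-fold rise (95% interval 2.07 to 2.36, limma adjusted p = 1.2e-08). The labels do not say whether strand was kept or used in counting, and the kit is taken here, from its name, as one that does not mark strand. Fragments of the shared bases may then have been counted for either gene. ATP6V1C2 came to 0.548 to 0.611% of the PDIA6 value with IFN-γ and 0.432 to 0.649% untreated. That ratio overlapped between the groups, and the part of PDIA6 in the ATP6V1C2 rise was not tested.

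The subunits of the ATP-splitting head were not called. ATP6V1A, the catalytic subunit, stood at 51.5, 52.2, 51.4 and 51.8 FPKM with IFN-γ, against 49.97, 51.7, 50.1 and 50.5 FPKM untreated. The groups overlapped, and the log2 change was 0.03 with a 95% interval of -0.04 to 0.10. ATP6V1B2, the brain and lysosome form of the non-catalytic nucleotide-binding subunit, was the highest V1 member by mean. It stood at 67.2, 64.8, 69.0 and 75.1 FPKM with IFN-γ, against 60.7, 63.7, 64.1 and 64.3 FPKM untreated. Its groups did not overlap, but the log2 change of 0.12 missed the threshold (limma adjusted p = 0.0973). ATP6V1B1, the kidney and inner ear form, was at 1.71 ± 0.116 FPKM with IFN-γ and 1.54 ± 0.255 FPKM untreated.

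The other V1 subunits gave log2 changes between -0.09 and 0.17, none of them called. ATP6V1G1, of the outer stalk, stood at 61.1, 59.0, 62.8 and 73.3 FPKM with IFN-γ, against 56.2, 55.1, 59.2 and 56.5 FPKM untreated, with limma adjusted p = 0.0870. Without IFN-γ replicate 4, its highest library, it was called at a smaller log2 change of 0.10 (limma adjusted p = 0.0410). Its outer-stalk partner ATP6V1E1 stood at 60.2, 59.9, 63.5 and 72.6 FPKM with IFN-γ, against 59.2, 57.6, 58.4 and 59.1 FPKM untreated, without overlap of the groups and with limma adjusted p = 0.164. ATP6V1D and ATP6V1F, of the central stalk, were at 27.2 ± 2.38 and 37.5 ± 5.21 FPKM with IFN-γ and 25.2 ± 0.807 and 37.8 ± 2.47 FPKM untreated. ATP6V1H, a regulatory subunit, was at 23.7 ± 2.61 FPKM with IFN-γ and 21.7 ± 0.789 FPKM untreated. The broadly expressed C form ATP6V1C1 was at 12.4 ± 0.635 and 12.7 ± 0.331 FPKM, the neuronal G form ATP6V1G2 at 4.71 ± 0.332 and 4.77 ± 0.223 FPKM, and the testis form ATP6V1E2 at 1.09 ± 0.210 and 1.15 ± 0.173 FPKM, with IFN-γ first. ATP6V1G3, the kidney form, was listed at 0 in 7 libraries and at 0.297 FPKM in untreated replicate 1, which corresponds to about 3.31 fragments. Exons of 7 members, ATP6V1C2 as the only called one, overlap those of another tested gene.

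**Figure D2:**
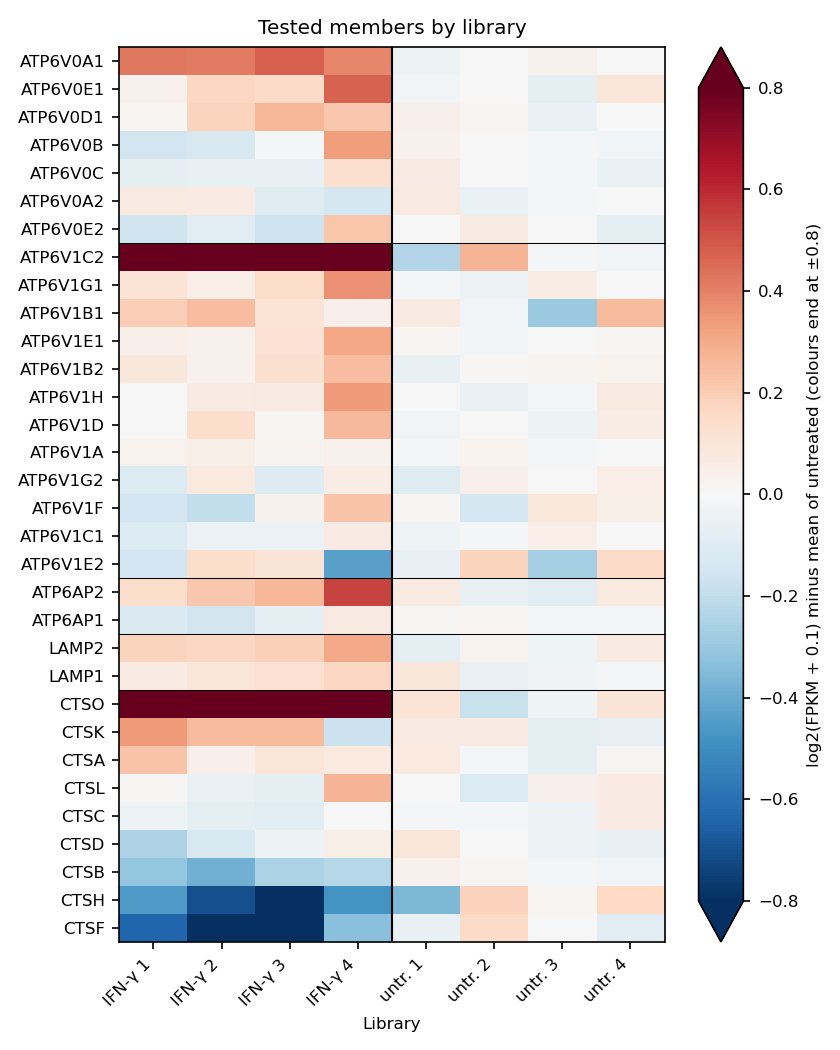
Log2(FPKM + 0.1) of each tested member in each library, minus its mean over the 4 untreated libraries (colours end at ±0.8 and arrowed ends hold larger values), IFN-γ libraries left of the line and untreated ones right of it. The CTSO row exceeds the scale in all 4 IFN-γ libraries, and the column of IFN-γ replicate 4 is the highest IFN-γ library in 22 of the 32 members.

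IFN-γ replicate 4 held the highest value of its group in 22 of 32 tested members, and in 14 of the 21 pump and accessory genes, where it did so in 36.9% of all genes tested. The summed FPKM of V0 members was 322, 333, 341 and 391 with IFN-γ, against 330, 324, 319 and 322 untreated. That of V1 members was 341, 341, 355 and 397 with IFN-γ, against 331, 330, 338 and 340 untreated. In both sums IFN-γ replicate 4 lies well above the other 7 libraries. Every IFN-γ library exceeds the untreated ones in the V1 sum but not in the V0 sum. The FPKM of all genes summed to 760353 in IFN-γ replicate 4 and 591795, 598516 and 603942 in IFN-γ replicates 1, 2 and 3. Its median over tested genes was 9.14 FPKM, against 9.25, 9.26 and 9.28 FPKM in those. Without IFN-γ replicate 4, 7 members were called higher and 4 lower. ATP6V1G1 and CTSK were added to the higher ones and ATP6AP1 to the lower ones.

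Of the accessory proteins of the pump 1 of 2 was called, and the difference between them was not tested. ATP6AP2, also called the (pro)renin receptor, helps assemble the pump and spans chrX:40579372-40606848, forward strand. Its FPKM was 54.5, 57.5, 59.5 and 72.0 with IFN-γ, against 52.0, 47.6, 46.6 and 52.2 untreated. The groups did not overlap, and IFN-γ replicate 4 was far above the rest. ATP6AP2 rose by 0.29 in log2 (SE 0.08, limma adjusted p = 0.0290), and 0.21 without IFN-γ replicate 4 (limma adjusted p = 0.0116). The call was lost without IFN-γ replicate 3 or untreated replicate 2 or 3 (limma adjusted p = 0.0558, 0.0808 and 0.0829), with quantile normalization (0.0540) and in limma without the trend (0.0582).

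ATP6AP1, which guides V0 assembly in the endoplasmic reticulum, was at 40.6, 39.6, 41.8 and 46.3 FPKM with IFN-γ, against 44.2, 44.4, 43.7 and 43.6 FPKM untreated. 3 IFN-γ libraries were below all untreated ones and the fourth above them. The log2 change was -0.07 (limma adjusted p = 0.385), and -0.11 without IFN-γ replicate 4 (limma adjusted p = 0.0113). ATP6AP1 was also called lower with quantile normalization and in TPM without short RNA genes (limma adjusted p = 0.00817 and 0.0158).

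LAMP2, a receptor of chaperone-mediated autophagy in 1 of its splice forms, rose while LAMP1 missed the threshold. LAMP2 spans chrX:120427827-120469365, reverse strand. Its FPKM was 25.8, 25.7, 26.0 and 28.3 with IFN-γ, against 21.8, 23.3, 22.3 and 24.1 untreated. The groups did not overlap, and LAMP2 rose by 0.21 in log2 (SE 0.05, limma adjusted p = 0.0104), or 15.6% more (95% interval 7.38 to 24.4). LAMP2 missed the threshold in TPM without short RNA genes (0.12, limma adjusted p = 0.113). LAMP1, the more abundant LAMP, was at 54.9, 56.3, 57.3 and 58.9 FPKM with IFN-γ, against 55.9, 50.7, 51.6 and 52.2 FPKM untreated. Untreated replicate 1 lay among the IFN-γ values, and the log2 change of 0.11 gave limma adjusted p = 0.0808, and without that library it was called (0.14, limma adjusted p = 0.0401). With quantile normalization its change was -0.0024. Whether LAMP2 changed more than LAMP1 was tested as a ratio, below.

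Of 9 tested cathepsins, the proteases of the lysosome, 1 rose and 3 fell, where 13.3% of all genes tested rose and 9.05% fell. These counts were not tested against those shares. TPM without short RNA genes also called CTSD lower (-0.18, limma adjusted p = 0.0419). CTSO, a cysteine cathepsin with few known substrates, spans chr4:155924118-155953917, reverse strand, with no exon of another GENCODE gene on its exons. Its FPKM was 7.15, 7.07, 7.88 and 9.01 with IFN-γ, against 1.73, 1.398, 1.55 and 1.73 untreated. The lowest IFN-γ library was over 4 times the highest untreated one. CTSO rose by 2.21 in log2 (SE 0.10, limma adjusted p = 9.7e-08), between 1.75 and 2.27 over 18 alternative settings, in all of which it was called. CTSO held 4.85 to 5.68% of the summed cathepsin FPKM with IFN-γ and 0.869 to 1.08% untreated.

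The falls were in cysteine cathepsins of high, middle and low level. CTSB, an endopeptidase and exopeptidase of most cells, was the most abundant cathepsin and spans chr8:11842524-11869448, reverse strand. Its FPKM was 51.7, 49.2, 53.9 and 54.7 with IFN-γ, against 65.6, 64.6, 63.4 and 63.2 untreated. The groups lay over 8 FPKM apart, and CTSB changed by -0.29 in log2 (SE 0.04, limma adjusted p = 5.1e-04). CTSB held 34.5 to 36.3% of the summed cathepsin FPKM with IFN-γ and 39.7 to 40.3% untreated.

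CTSF, which can trim the class II invariant chain and whose loss causes a neuronal ceroid lipofuscinosis, spans chr11:66563463-66568841, reverse strand. Its FPKM was 7.77, 6.15, 6.81 and 9.59 with IFN-γ, against 11.6, 13.5, 12.1 and 11.4 untreated. All IFN-γ libraries were below all untreated ones, with replicate 4 the nearest to them. CTSF changed by -0.69 in log2 (SE 0.12, limma adjusted p = 0.00235), and by -0.81 without IFN-γ replicate 4.

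CTSH, an aminopeptidase, spans chr15:78921058-78949574, reverse strand. Its FPKM was 2.27, 1.89, 1.74 and 2.23 with IFN-γ, against 2.43, 3.58, 3.17 and 3.51 untreated. Untreated replicate 1 lay close to the IFN-γ values, the groups did not overlap, and the values correspond to about 59.4 to 153 fragments. CTSH changed by -0.61 in log2 (SE 0.14, limma adjusted p = 0.0104).

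**Figure D3:**
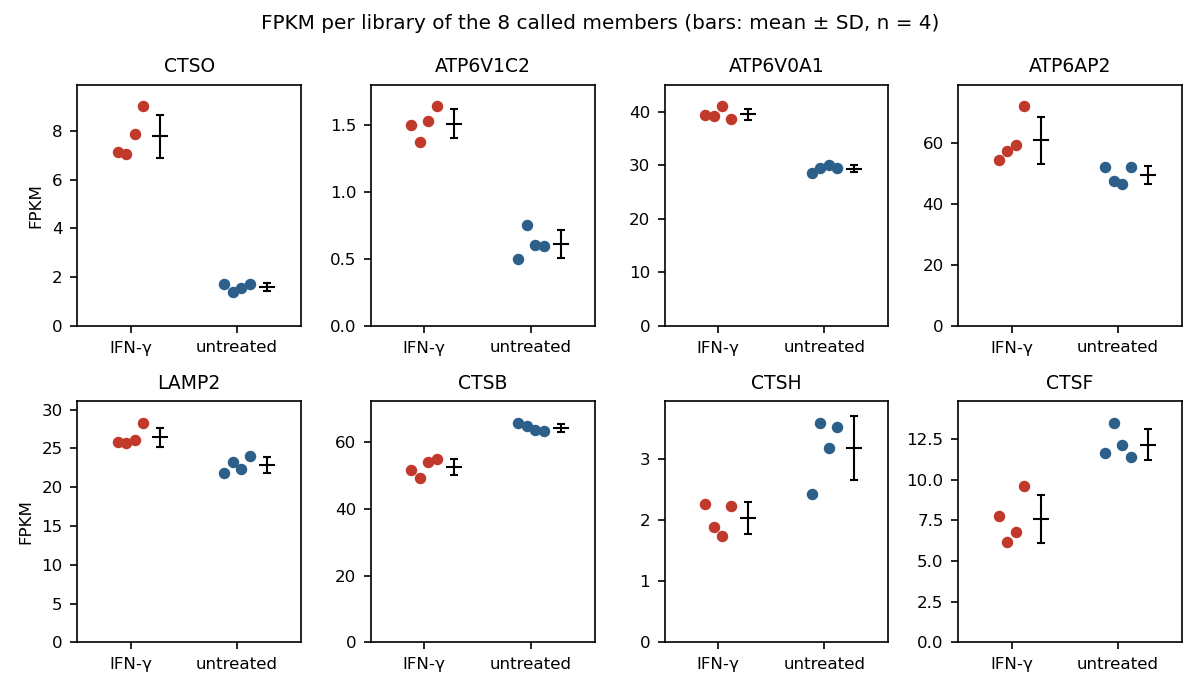
FPKM (linear axes from 0) of the 8 called members in each library, IFN-γ at left and untreated at right in each panel, with the mean ± SD of 4 libraries beside the points. CTSO was at 7.07 to 9.01 FPKM with IFN-γ against 1.398 to 1.73 FPKM untreated, and in none of the 8 genes do the groups overlap.

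The remaining cathepsins were not called. CTSD, the aspartic cathepsin that activates other lysosomal enzymes, was the next most abundant after CTSB, at 22.2, 24.2, 25.7 and 27.2 FPKM with IFN-γ, against 28.2, 26.4, 25.7 and 25.3 FPKM untreated. The groups overlapped, and the log2 change was -0.09 (95% interval -0.24 to 0.05). CTSC, which activates granule proteases of immune cells, was at 17.7 ± 0.494 FPKM with IFN-γ and 18.3 ± 0.604 FPKM untreated, and CTSA, the serine carboxypeptidase that protects sialidase and β-galactosidase, at 18.0 ± 1.04 and 16.7 ± 0.749 FPKM. CTSL, a broad endopeptidase, was at 13.5 ± 1.58 FPKM with IFN-γ and 13.1 ± 0.694 FPKM untreated. CTSK, the collagen-cutting cathepsin of osteoclasts, stood at 5.53, 5.22, 5.21 and 3.86 FPKM with IFN-γ, against 4.59, 4.58, 4.12 and 4.16 FPKM untreated. 3 of its IFN-γ libraries were above all untreated ones and replicate 4 was below them, and without replicate 4 it was called (log2 change 0.28, limma adjusted p = 0.0124). CTSZ was at 0.0881 to 0.363 FPKM with IFN-γ and 0.113 to 0.400 FPKM untreated, about 2.23 to 9.84 fragments, and was not tested.

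CTSS, the cathepsin that completes the cutting of the invariant chain in antigen-presenting cells, is not a member by symbol. It was at 2.82, 2.63, 2.90 and 3.55 FPKM with IFN-γ, against 0.0716, 0.170, 0.130 and 0.114 FPKM untreated. The untreated values are near the pseudocount of 0.1 and CTSS passed the filter only through its IFN-γ values, so no size of change is given.

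Several pump subunits and the LAMPs come as paralogs of which a cell can use one or another. For each family the less abundant of its top pair was divided by the more abundant, per library, in 7 families with both above 0.5 FPKM, and the log2 ratios were compared with an exact two-sided permutation test. With 4 against 4 libraries the smallest p is 0.0286, and no ratio passed 0.05 after adjustment over 7 families. At least 5 of the 7 would have had to reach that smallest p to pass, so missing the threshold says little. In 3 families the groups did not overlap, each with p = 0.0286 and an adjusted p = 0.0667 in the exact test. ATP6V0A2 came to 19.3 to 22.6% of ATP6V0A1 with IFN-γ and 27.6 to 31.1% untreated. ATP6V0E2 came to 6.15 to 6.70% of ATP6V0E1 with IFN-γ and 6.81 to 8.05% untreated. ATP6V1C2 came to 11.9 to 13.6% of ATP6V1C1 with IFN-γ and 4.85 to 6.76% untreated, with the limit from PDIA6 given above. Exons of ATP6V0E2, ATP6V1B1, ATP6V1E2 and ATP6V1G2 also overlap those of tested genes, namely ATP6V0E2-AS1, VAX2, RHOQ and NFKBIL1 in that order. The part of these genes in the ratios was not tested.

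The other 4 ratios overlapped between the groups. LAMP2 came to 45.6 to 48.1% of LAMP1 with IFN-γ and 39.1 to 46.1% untreated (exact permutation p = 0.171), so a larger change of LAMP2 than of LAMP1 was not shown. ATP6V1G2 came to 6.90 to 8.68% of ATP6V1G1 with IFN-γ and 8.09 to 9.08% untreated (exact permutation p = 0.0857). The kidney form ATP6V1B1 came to 2.23 to 2.98% of ATP6V1B2 with IFN-γ and 2.06 to 3.00% untreated, and the testis form ATP6V1E2 to 1.27 to 2.28% of ATP6V1E1 with IFN-γ and 1.77 to 2.43% untreated.

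**Figure D4:**
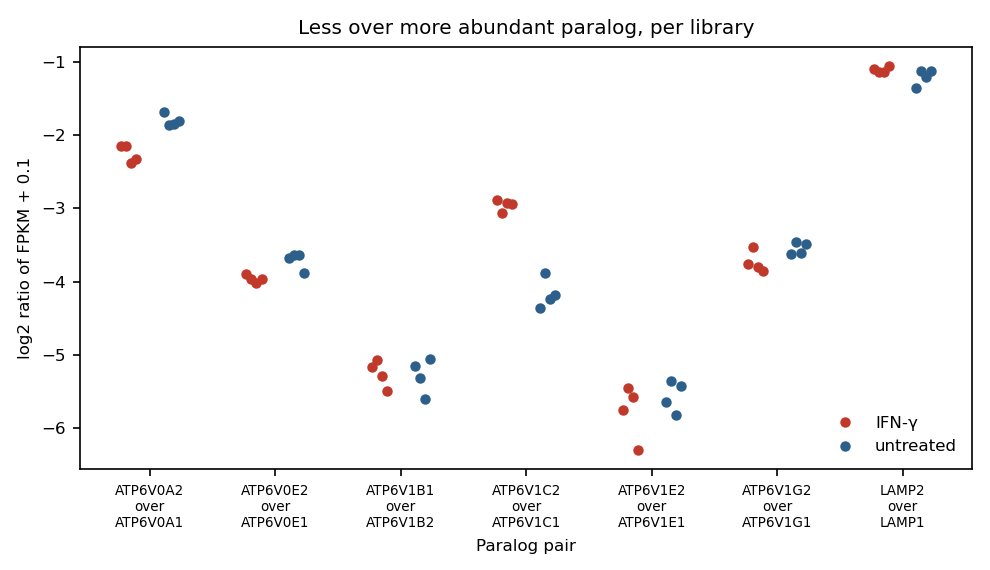
Log2 ratio of the less to the more abundant paralog (FPKM + 0.1 each) in each library, IFN-γ left and untreated right in each pair. The groups stand apart for ATP6V0A2 over ATP6V0A1, ATP6V0E2 over ATP6V0E1 and ATP6V1C2 over ATP6V1C1, and overlap in the other 4 pairs.

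Other genes of the lysosome were counted on lists chosen by function, for the same comparison. Over all genes tested 13.3% rose and 9.05% fell, and no list below was tested against those shares. CTSS and SLC15A3, counted among the rises, passed the filter only through their IFN-γ values. Over 141 tested genes of 8 lists, 17 rose and 11 fell, or 19.9%, against 22.3% of all genes. These counts ran from 9 to 19 higher and 6 to 18 lower when a library was left out, with 9 higher without untreated replicate 2, 11 higher without untreated replicate 1 or 4, 7 and 6 lower without untreated replicates 1 and 4, and 18 lower without IFN-γ replicate 4. Quantile normalization gave 27 lower, and TPM without short RNA genes 8 higher and 19 lower.

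Among pump assembly factors, regulators and the lysosomal chloride exchangers, 2 of 17 rose and 3 fell. NCOA7, which binds the V-ATPase, was at 66.6 ± 1.45 FPKM with IFN-γ and 58.1 ± 0.949 FPKM untreated, and WDR7, a partner of the pump in vesicle acidification, also rose. CLCN7, the lysosomal chloride exchanger, fell to 8.30 ± 0.492 FPKM with IFN-γ, against 9.54 ± 0.174 FPKM untreated. CLCN5, an endosomal exchanger of the same family, fell to 22.4 ± 1.68 FPKM with IFN-γ, against 26.3 ± 2.01 FPKM untreated, with overlap of the groups, and OXR1 fell as well.

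Of 40 hydrolases and their cofactors other than cathepsins, 5 rose and 1 fell. The 40 include TPP2, a mainly cytosolic peptidase, which was not called. IFI30, the thiol reductase that opens disulfides of antigens in the lysosome, rose to 126 ± 14.6 FPKM with IFN-γ, against 6.34 ± 1.55 FPKM untreated (log2 change 4.31, SE 0.16, limma adjusted p = 1.1e-08). ACP2, lysosomal acid phosphatase, was at 6.68 ± 0.404 FPKM with IFN-γ and 4.51 ± 0.161 FPKM untreated, and the serine carboxypeptidase SCPEP1 at 26.4 ± 1.27 and 20.4 ± 1.07 FPKM, both called. Legumain (LGMN) and LIPA were also called higher, and PPT2 lower.

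Of 28 lysosomal membrane proteins, 6 rose and 2 fell. SLC15A3, a lysosomal transporter of histidine and peptides, was at 5.48 ± 0.361 FPKM with IFN-γ, against 0.0862 ± 0.0153 FPKM untreated. It too passed the filter only through its IFN-γ values, with untreated values under the pseudocount, so no size of change is given. LAMP5, a LAMP of neurons, fell to 2.50 ± 0.521 FPKM with IFN-γ, against 4.55 ± 0.377 FPKM untreated. LAMP3, a LAMP of dendritic cells, was at 0.253, 0.125, 0.265 and 0.171 FPKM with IFN-γ and listed at 0 in all 4 untreated libraries, under the filter. TPCN1, a channel of endosomes and lysosomes, fell to 5.36 ± 0.261 FPKM with IFN-γ, against 6.71 ± 0.203 FPKM untreated.

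Of 27 sorting and fusion genes, 2 rose and 4 fell. The sorting receptors SORL1 and SORT1 fell to 3.44 ± 0.115 and 11.2 ± 0.575 FPKM with IFN-γ, against 4.93 ± 0.216 and 14.8 ± 0.556 FPKM untreated. CLN8, an export factor for lysosomal enzymes, fell to 3.85 ± 0.522 FPKM with IFN-γ, against 5.19 ± 0.454 FPKM untreated. Of 21 genes that form mTORC1 or control its docking or activity at the lysosome, inhibitors among them, 1 fell and none rose. The 1 was NPRL3, at 15.04 ± 0.568 FPKM with IFN-γ, against 17.2 ± 1.01 FPKM untreated. None of the 3 tested MiT-TFE factors, the regulators of lysosomal genes, was called: TFEB was at 0.942 ± 0.0840 FPKM with IFN-γ and 1.16 ± 0.158 FPKM untreated, TFE3 at 7.81 ± 0.494 and 7.46 ± 0.473 FPKM and MITF at 1.99 ± 0.246 and 2.22 ± 0.412 FPKM. Of 3 tested cathepsin inhibitors 1 rose, cystatin C (CST3), to 33.1 ± 4.03 FPKM with IFN-γ, against 26.0 ± 0.763 FPKM untreated. Of 2 tested cathepsins outside the member list 1 rose, CTSS, which passed the filter only through its IFN-γ values. CTSV was at 0.538 ± 0.167 FPKM with IFN-γ and 0.571 ± 0.108 FPKM untreated.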

How the data were processed

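RNA was measured in 8 libraries of cells labelled M17, grouped by the labelled treatment. The authors deposited FPKM for each gene and library. The submitters' processing notes name TopHat2, Cuffdiff and hg38; versions, options and any scaling between libraries were not given in the sources used here. Values were used as log2(FPKM + 0.1) for the 13598 of 26372 genes whose mean over the 8 libraries reached 0.5 FPKM. Groups were compared with limma 3.58.1 (R 4.3.3, mean-variance trend) and p-values adjusted by Benjamini-Hochberg across those genes. The fit was tested on simulated data of 13598 genes, with 50 genes changed at each fold. It recovered 48% of them at 1.25-fold, 72% at 1.5-fold, 98% at 2-fold and 100% at 4-fold, with 10 false calls among 169. Missing the threshold therefore says little about small changes. The real data gave 3039 calls, far more than the simulated data, so recovery in the real data may differ from these rates. Paralog ratios were compared with scipy 1.17.1. Depth was estimated from the spacing of low FPKM values and is approximate. The members and lists were chosen with earlier results of these data known. All members are reported, with library values for called ones and the 2 most abundant of each role. Of other lists, up to 3 called genes of largest change with at least 1 FPKM in the higher group are given with values, besides CTSS, TCIRG1, TFEB and IRF1. Some items are not reported here. WDR7, OXR1, LGMN, LIPA, PPT2, LAMP3, CTSV, TFE3, MITF, PDIA6 and the library values of other members were added after their values were seen. 18 alternatives were run: pseudocounts, filters, scalings, limma options, the replicate number as a block and each library left out.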

Additional observations from a re-analysis of the deposited data

Results flagged for a closer look

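5 values of members stood far from the other 3 libraries of their group, among 69 groups of 4 examined, where chance flags about 1 in 20. 3 of them were the highest value, in IFN-γ replicate 4: ATP6V0C at 129 FPKM with the others at 112 to 114 FPKM, ATP6V0E2 at 5.59 FPKM with the others at 4.26 to 4.48 FPKM, and LAMP2 at 28.3 FPKM with the others at 25.7 to 26.0 FPKM. LAMP2 is called with and without that library (log2 change 0.21 and 0.18). In the untreated group ATP6V1B2 was at 60.7 FPKM in replicate 1 with the others at 63.7 to 64.3 FPKM, and ATP6V1G3 was at 0.297 FPKM in replicate 1 and listed at 0 in the others. Why these libraries differ was not tested.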

How the results depend on the processing

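Of the 8 called members, 6 (CTSO, ATP6V1C2, ATP6V0A1, CTSB, CTSF and CTSH) were called in all 18 alternatives, and ATP6AP2 and LAMP2 in 13 and 17. No called member changed direction, and 16 of the 24 others were called in none. Without 1 library the members called ran from 4 to 7 higher and 3 to 4 lower, all genes called from 1484 to 2157 higher and 852 to 1698 lower, and the lysosome lists from 9 to 19 higher and 6 to 18 lower. Quantile normalization gave 5 members, 2564 genes and 27 list genes lower. TPM without short RNA genes gave 5 members and 19 list genes lower, and 1144 genes and 8 list genes higher; the causes were not tested. The scalings moved the median log2 change of all genes to -0.071 and -0.096. With the replicate number as a block 6 members were higher and 3 lower, adding ATP6V0E1 (limma adjusted p = 0.0427), among 1639 higher and 1017 lower over all genes. Same-numbered libraries correlated in their deviations at -0.0275 to 0.079, so the numbers are not shown to pair the libraries, and no other member's call changed. 9 members that were not called changed sign, none of them past the threshold. With quantile normalization ATP6V0B was at -0.12, ATP6V1A at -0.069, CTSL at -0.011 and LAMP1 at -0.0024, and in TPM without short RNA genes ATP6V0B at -0.082, ATP6V1A at -0.058 and CTSL at -0.052. Without IFN-γ replicate 4, ATP6V0A2 was at 0.013, ATP6V0B at -0.099, ATP6V1E2 at 0.031 and CTSL at -0.039. Without IFN-γ replicate 1, ATP6V0C was at 0.0036, ATP6V1F at 0.022 and ATP6V1G2 at 0.010, without replicate 2 ATP6V1F at 0.037, and without replicate 3 ATP6V1G2 at 0.0086. Without untreated replicate 1 ATP6V0C was at 0.0055 and without replicate 3 ATP6V1F at 0.0058. The log2 ratio of ATP6V1B1 to ATP6V1B2 differed by 0.026 between groups, by -0.027 with a pseudocount of 1, and by -0.0806 to 0.104 without 1 library; no other ratio changed sign. Over all settings without 1 library these members ran from -0.0572 (ATP6V0A2), -0.0637 (ATP6V0C), -0.174 (ATP6V1E2), -0.105 (ATP6V1F) and -0.0511 (ATP6V1G2) at their lowest, and to 0.0632 (ATP6V0B) and 0.0778 (CTSL) at their highest. Low members such as CTSH, ATP6V1C2 and CTSZ rest on few fragments, which limits their precision.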
